A study of Mus musculus with 24 samples.

Results

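Casp1, Casp4, Casp12, Gsdmd, Casp8, Ripk3, Mlkl and Nod1, 8 genes of pyroptosis, necroptosis and innate sensing, were followed in mouse liver endothelial cells after silencing or overexpression of P16Ink4a. They were taken by symbol from the table of read counts, as protein-coding genes, and are 8 of the 56748 genes listed there (21970 of them protein coding). All 8 passed the low-count filter in every comparison. They were picked by name, with earlier results of these data known, as were the gene lists below. Counts among them that are set beside shares of all genes are thus a description and no independent support. Only the caspase genes Casp1, Casp4 and Casp12 are neighbours in the genome.

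Pyroptosis is a lytic form of cell death in which inflammatory caspases cut gasdermin D, whose freed part makes pores in the plasma membrane. Caspase-1 is activated in inflammasomes and also matures interleukin-1β and interleukin-18, while mouse Casp4, known as caspase-11, senses bacterial lipopolysaccharide in the cytosol. Necroptosis is a caspase-independent lytic death in which the kinase RIPK3 phosphorylates MLKL, and caspase-8, the initiator caspase of death receptors, keeps this route in check. NOD1 is a cytosolic sensor of bacterial peptidoglycan fragments that signals to NF-kB, and caspase-12 is an inflammatory-type caspase associated with the endoplasmic reticulum.

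The cells came from livers of 3-month-old female C57BL/6 mice and were purified with Cd31 MicroBeads (Cd31+, liver endothelial cells) or Cd146 MicroBeads (Cd146+, liver endothelial sinusoidal cells). Each population was transduced with 1 of 4 lentiviral constructs. P16 shRNA is a hairpin against P16Ink4a in the pLKO.1 vector, and its control, nc shRNA, carries a non-coding hairpin in pLKO.1. P16 is the P16Ink4a cDNA fused to GFP in the pLenti-C-mGFP-P2A-Puro vector, and empty vector is that backbone without the cDNA. RNA was taken 1 week after transduction, and 3 libraries were sequenced for each of the 8 groups. All groups, controls included, were thus transduced with a lentivirus. Whether libraries of a group came from separate mice or cultures is not stated in the sources used here, so that p-values measure the spread between these libraries. Libraries carry replicate numbers from 1 to 6, which are shared between constructs, and are named here by their number.

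Each library had 15409767 to 26470392 reads assigned to genes. Levels are given as CPM, read counts scaled to library size with TMM normalization, and a count of 3, the most that a count of 0 allows, was 0.113 to 0.195 CPM. Cdkn2a, the gene of P16Ink4a, lay at 36.2 to 76.0 CPM with nc shRNA and 5.13 to 9.22 CPM with P16 shRNA in Cd31+ cells, and at 94.6 to 196 and 7.80 to 25.7 CPM in Cd146+ cells. With P16 it lay at 137 to 330 CPM against 32.5 to 80.0 CPM with empty vector in Cd31+ cells, and at 228 to 834 against 69.6 to 104 CPM in Cd146+ cells. Defining endothelial transcripts were present (Pecam1 4.05 to 281 CPM, Cdh5 3.70 to 367 CPM), but those of the sinusoid were mixed, with Stab1 at 3.63 to 431 CPM, Lyve1 at most at 7.53 CPM, Stab2 at 0.963 CPM and Clec4g at 0.225 CPM. Of the mesenchymal markers, Col1a1 (461 to 19413 CPM) and Acta2 (1000 to 5777 CPM) were among the most abundant, Tagln lay at 4.58 to 33.7 CPM, and Lrat was at 0 in 20 libraries. The 3 Cd146+ libraries of number 3 stood apart, with 29.7 to 56.4 CPM summed over 14 endothelial markers against 256 to 2050 CPM in the other 21 libraries. Empty vector number 4 of Cd146+ cells had the lowest sum over 14 mesenchymal markers (6694 CPM, against 11206 to 51301 CPM elsewhere). Although the mice are given as female, libraries of numbers 1, 2 and 3 carried the Y-linked Ddx3y (52.1 to 171 CPM) and almost no Xist (at most 0.225 CPM), while those of numbers 4, 5 and 6 carried Xist (327 to 761 CPM) and no Ddx3y count. In bulk RNA, fewer cells of a type and less RNA per cell cannot be told apart.

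Casp1, Casp4 and Casp12 are neighbours on the plus strand of chromosome 9, from 5298508 to 5307290, 5308828 to 5336783 and 5345430 to 5373032 in the table, with 1537 and 8646 bases between them and no other listed gene in these gaps. The table places Gsdmd on chromosome 15 (75734176 to 75739257, plus strand), Casp8 on chromosome 1 (58834533 to 58886662, plus strand) and Nod1 on chromosome 6 (54900934 to 54949597, minus strand). Mlkl is listed on chromosome 8 (112038429 to 112064809, minus strand) and Ripk3 on chromosome 14 (56022452 to 56026322, minus strand). The table names no genome build and the labels name mm9. Its starts differ from those of the GRCm38 annotation by up to 726632 bases for members outside chromosome 9, so that these positions are given only as listed. Inside Casp8 the table lists Gm37760 (at most 12 reads in a library) and inside Mlkl the pseudogene Gm45712 (at most 4 reads), both far below the counts of the host genes.

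Sequence before the start site was available for 7 of the 8 genes, without Gsdmd, in RefSeq's annotation of GRCm38.p6 (9 entries of 250 bases before and 50 bases after a start). An interferon-stimulated response element (GAAANNGAAA, either strand) was found in 0 of these 9 entries and in 3.44% of all 32851 promoters. A gamma-activated sequence (TTCNNNGAA, which reads the same on both strands) was found in 2 of the 9, at Casp12 and at the second start of Nod1, against 8.30% of all promoters. The NF-kB motif (either strand) was found in 2 of the 9, the overlapping entries of Casp4, against 5.81% of all promoters. The upstream parts of the 3 genes with a match are shown because Casp4 and Nod1 are the members with the smallest p in Cd31+ cells and Casp12 is the neighbour of Casp4. Matches are in capitals, 5′ to 3′ on the strand of the gene, and the first block of capitals of Casp4 holds overlapping NF-kB matches.
Casp4, chr9:5308599-5308848, plus strand: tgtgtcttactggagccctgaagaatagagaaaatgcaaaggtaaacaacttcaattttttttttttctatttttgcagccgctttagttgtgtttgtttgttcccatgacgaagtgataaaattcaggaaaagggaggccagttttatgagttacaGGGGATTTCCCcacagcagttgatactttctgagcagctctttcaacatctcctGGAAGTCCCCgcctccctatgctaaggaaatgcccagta
Casp12, chr9:5345226-5345475, plus strand: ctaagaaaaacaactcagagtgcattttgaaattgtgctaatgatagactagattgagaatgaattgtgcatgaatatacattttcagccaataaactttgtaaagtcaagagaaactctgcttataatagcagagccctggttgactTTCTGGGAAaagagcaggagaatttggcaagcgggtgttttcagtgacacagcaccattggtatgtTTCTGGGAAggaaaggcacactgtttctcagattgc
Nod1, chr6:54971662-54971911, minus strand: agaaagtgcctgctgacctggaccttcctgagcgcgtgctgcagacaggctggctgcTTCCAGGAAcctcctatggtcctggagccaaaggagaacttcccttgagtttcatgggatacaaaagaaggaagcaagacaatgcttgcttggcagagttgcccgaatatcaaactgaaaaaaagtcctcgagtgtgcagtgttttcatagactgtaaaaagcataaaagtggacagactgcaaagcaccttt
In Casp4 the matches began 93, 92 and 39 bases before the start, in Casp12 102 and 36 bases before it with the same letters, and in Nod1 193 bases before it. A match is a description of these letters and not a measured site.

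Per length, Nod1 and Casp8 were the most abundant of the 8 and Casp1 and Casp4 the least. In the FPKM deposited by the authors (a level scaled to gene length and library size), the means over 24 libraries were 15.6 for Nod1 and 15.04 for Casp8. Gsdmd (11.6), Mlkl (11.5) and Ripk3 (9.61) followed, then Casp12 (8.13), Casp1 (3.86) and Casp4 (3.35). Neighbours in this order overlapped widely, since Nod1 reached 25.4 and Casp8 19.0 FPKM in their highest libraries and Casp1 ranged from 0.442 to 18.5 FPKM. The order was the same when FPKM were replaced by TMM-normalized counts per kilobase.

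**Figure D1:**
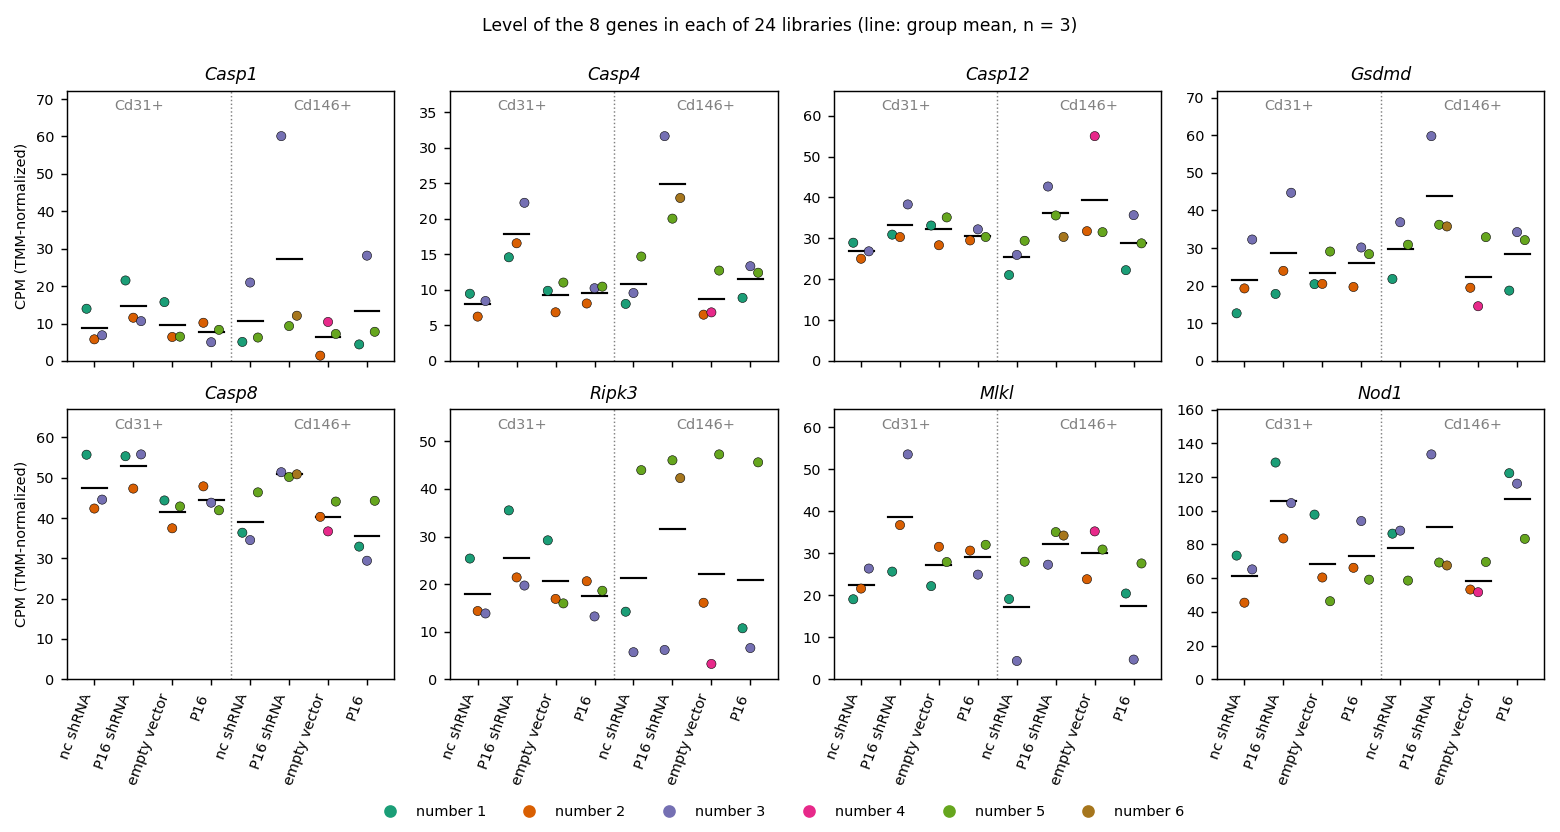
CPM (counts scaled to library size by TMM, y axis from 0) of each gene in the 24 libraries, by population and construct, with points coloured by replicate number and lines at group means (n = 3). Casp4 with P16 shRNA sits above all other libraries in both populations (14.6 to 22.3 CPM in Cd31+ and 20.02 to 31.6 CPM in Cd146+ cells), while Ripk3 in Cd146+ cells sorts by number, with number 5 at 44.0 to 47.3 CPM under every construct.

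The first comparison asked whether silencing of P16Ink4a changed these genes in Cd31+ cells. All 8 had a higher fitted level with P16 shRNA than with nc shRNA, with a median log2 fold change of 0.63 against 0.00342 over all 14358 genes tested. None passed edgeR's quasi-likelihood test at an adjusted p under 0.05 (0 of 8, where 0.383% of all genes were called higher). At an unadjusted p under 0.05, Casp4, Nod1, Mlkl and Casp12 were higher and no member lower (4 of 8, against 9.51% of all genes). In Casp4, Casp12 and Nod1 all 3 P16 shRNA libraries lay above all 3 nc shRNA libraries (3 of 8, against 14.1% of all genes, p = 0.1 by an exact two-sided permutation test, the least that 3 against 3 can give). With the replicate number as a block over the 12 Cd31+ libraries, 5 of 8 were called higher (Casp1, Casp4, Nod1, Mlkl and Ripk3, against 7.95% of all genes). The block over the 2 groups alone added Gsdmd (6 of 8, against 8.92%). DESeq2's Wald test called Casp4 and Nod1 (2 of 8, against 3.38%).

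In Cd146+ cells, all 8 again had a higher fitted level with P16 shRNA (median log2 fold change 0.56, against 0.03 over 15124 genes). edgeR called none of them (0 of 8, and 0% of all genes), and Casp4 and Casp12 were higher at an unadjusted p under 0.05 (2 of 8, against 5.44%). Casp4, Casp8 and Casp12 had no overlap between the groups (3 of 8, against 10.7% of all genes). With the block over 12 libraries Casp1 and Casp4 were called higher (2 of 8, against 3.53%), with the block over the 2 groups none (0 of 8, against 0%, with 5 at an unadjusted p under 0.05, against 7.57%), and by DESeq2 Casp4 alone (1 of 8, against 0.906%). In Cd146+ cells number 6 occurs only with P16 shRNA, so that its block term takes up that library. Every blocked silencing value in Cd146+ cells, here and below, thus rests on P16 shRNA numbers 3 and 5. Without both number 3 libraries none was called (0 of 8, and 0% of all genes), Casp1 and Casp4 were higher at an unadjusted p under 0.05 (2 of 8, against 3.71%), and Nod1 had a log2 fold change of -0.084.

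**Figure D2:**
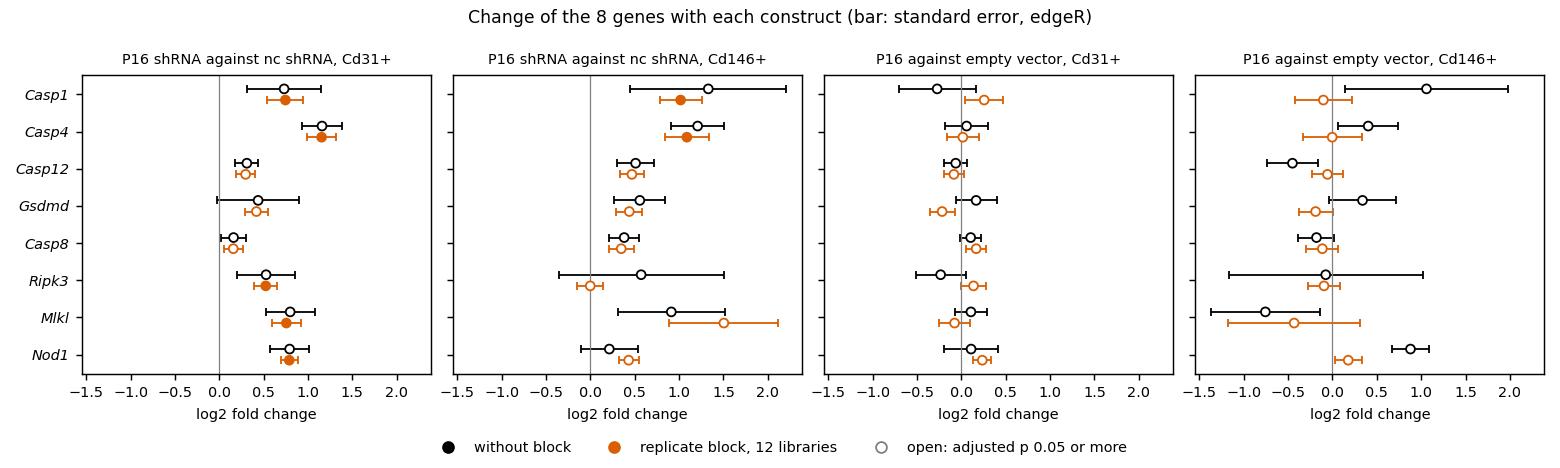
Log2 fold change with its standard error (edgeR) of the 8 genes in each comparison of a construct with its control, without a block (black) and with the replicate number as a block over the 12 libraries of the population (orange), filled where the adjusted p is under 0.05. Values without the block are positive for all 8 genes in both silencing comparisons and spread around 0 in both overexpression comparisons.

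Of the inflammatory caspases, Casp4 was higher with P16 shRNA than in any other library of its population. Its CPM were 14.6, 16.6 and 22.3 with P16 shRNA against 9.46, 6.24 and 8.43 with nc shRNA (numbers 1, 2 and 3) in Cd31+ cells. The Cd146+ libraries had 31.6, 20.02 and 22.9 (numbers 3, 5 and 6) against 8.02, 9.56 and 14.7 (numbers 1, 3 and 5). The highest of the 9 other libraries reached 11.03 CPM in Cd31+ and 14.7 CPM in Cd146+ cells, and 3.6% and 3.57% of 16524 genes lay above all 9 others in this way. The log2 fold changes were 1.16 (SE 0.23, adjusted p = 0.0653 from edgeR) in Cd31+ and 1.21 (SE 0.30, adjusted p = 0.382) in Cd146+ cells. The block over 12 libraries gave 1.15 (adjusted p = 0.000888 from edgeR) and 1.09 (adjusted p = 0.0373).

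Casp1 overlapped between P16 shRNA and nc shRNA libraries in both populations. Its CPM in Cd31+ cells were 21.5, 11.5 and 10.6 with P16 shRNA and 13.9, 5.77 and 6.86 with nc shRNA (numbers 1, 2 and 3), with number 1 highest in both groups. Among Cd146+ libraries they were 60.1, 9.32 and 12.1 with P16 shRNA (numbers 3, 5 and 6) and 5.08, 21.0 and 6.25 with nc shRNA (numbers 1, 3 and 5). Number 3, the number with few endothelial transcripts, was highest in both, and the part of that in the level was not tested. The log2 fold change of 0.73 (SE 0.42, adjusted p = 0.390 from edgeR) in Cd31+ cells became 0.74 (SE 0.20, adjusted p = 0.0273) with the block over 12 libraries. In Cd146+ cells 1.33 (SE 0.88, adjusted p = 0.551) became 1.02 (SE 0.24, adjusted p = 0.0373). Without P16 shRNA number 3 it was -0.010 in Cd146+ cells, and without both number 3 libraries 0.92.

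Casp12 differed by less. In Cd31+ cells it had 30.9, 30.3 and 38.3 CPM with P16 shRNA against 28.9, 25.0 and 26.8 CPM with nc shRNA (log2 fold change 0.31, SE 0.13, adjusted p = 0.25 from edgeR). The Cd146+ libraries had 42.7, 35.6 and 30.3 CPM against 21.0, 25.9 and 29.4 CPM (0.51, SE 0.21, adjusted p = 0.426). No P16 shRNA library was as low as any nc shRNA library, but the empty vector libraries of the same populations reached 28.3 to 35.1 and 31.5 to 55.0 CPM. Its highest library, 55.0 CPM, was empty vector number 4 of Cd146+ cells, the library with the lowest mesenchymal sum. The block did not bring Casp12 under the threshold (adjusted p = 0.0822 and 0.0609 over 12 libraries).

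Gsdmd, the pore-forming substrate, spread over numbers within each group. In Cd31+ cells it had 17.8, 23.9 and 44.7 CPM with P16 shRNA and 12.7, 19.3 and 32.3 CPM with nc shRNA (numbers 1, 2 and 3), with the order of numbers shared by both groups. Levels in Cd146+ cells were 59.7, 36.2 and 35.7 CPM (numbers 3, 5 and 6) and 21.8, 36.9 and 30.9 CPM (numbers 1, 3 and 5). The groups overlapped in both populations, and the log2 fold changes were 0.44 (SE 0.46, adjusted p = 0.650 from edgeR) and 0.56 (SE 0.29, adjusted p = 0.478). In Cd31+ cells the block left 0.43 with the 2 groups (SE 0.11, adjusted p = 0.0263) and 0.42 with 12 libraries (adjusted p = 0.0509). Without P16 shRNA number 3 the value in Cd31+ cells was -0.033.

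Casp8, the death receptor caspase, had the narrowest range over the 24 libraries as a ratio of highest to lowest CPM (29.4 to 55.8 CPM). In Cd31+ cells it had 55.3, 47.3 and 55.8 CPM with P16 shRNA and 55.7, 42.4 and 44.6 CPM with nc shRNA, which overlapped (log2 fold change 0.16, SE 0.14, adjusted p = 0.562 from edgeR). Cd146+ cells had 51.4, 50.2 and 50.8 CPM with P16 shRNA against 36.4, 34.5 and 46.4 CPM with nc shRNA (0.38, SE 0.17, adjusted p = 0.443). These 3 P16 shRNA libraries lay above all 9 other Cd146+ libraries, which ranged from 29.4 to 46.4 CPM. It was the only member for which 1 same-numbered pair, number 1 of Cd31+ cells, had no higher value with P16 shRNA.

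Mlkl, the executioner of necroptosis, had 25.6, 36.7 and 53.6 CPM with P16 shRNA and 19.0, 21.6 and 26.4 CPM with nc shRNA in Cd31+ cells (numbers 1, 2 and 3). The groups overlapped by 1 library each, and the log2 fold change was 0.80 (SE 0.28, adjusted p = 0.185 from edgeR), or 0.75 with the block over 12 libraries (SE 0.16, adjusted p = 0.00900). Levels in Cd146+ cells were 27.3, 35.05 and 34.2 CPM with P16 shRNA (numbers 3, 5 and 6) and 19.1, 4.34 and 28.0 CPM with nc shRNA (numbers 1, 3 and 5). The low value belonged to number 3, and P16 number 3 was as low (4.67 CPM), so that the number 3 pair differed by 2.62 in log2 CPM and the number 5 pair by 0.32. The fitted change was 0.91 (SE 0.60, adjusted p = 0.550), 1.505 with the block (SE 0.61, adjusted p = 0.212) and 0.56 without both number 3 libraries (adjusted p = 0.534).

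Ripk3, the kinase upstream of Mlkl, had 35.5, 21.4 and 19.7 CPM with P16 shRNA and 25.4, 14.3 and 13.8 CPM with nc shRNA in Cd31+ cells. Each P16 shRNA library lay above its same-numbered control by 0.48 to 0.57 in log2 CPM, although the groups overlapped. The log2 fold change was 0.53 (SE 0.32, adjusted p = 0.418 from edgeR) and 0.52 with the block over 12 libraries (SE 0.13, adjusted p = 0.0170). Among Cd146+ libraries it had 6.14, 46.0 and 42.3 CPM with P16 shRNA (numbers 3, 5 and 6) and 14.2, 5.68 and 44.0 CPM with nc shRNA (numbers 1, 3 and 5). Same-numbered libraries there differed by 0.11 and 0.07 in log2 CPM, and the fitted change went from 0.57 (SE 0.93, adjusted p = 0.819) to -0.00246 with the block (SE 0.15, adjusted p = 0.994). Without nc shRNA number 3 it was 0.11, and without nc shRNA number 5 1.67.

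Nod1, the peptidoglycan sensor, had 129, 83.6 and 105 CPM with P16 shRNA and 73.4, 45.4 and 65.2 CPM with nc shRNA in Cd31+ cells (numbers 1, 2 and 3), with no overlap. The log2 fold change was 0.79 (SE 0.22, adjusted p = 0.126 from edgeR), and 0.79 with the block over 12 libraries (SE 0.09, adjusted p = 0.000241). Empty vector number 1 had 97.7 CPM, however, which is above P16 shRNA number 2. In Cd146+ cells it had 133, 69.3 and 67.5 CPM with P16 shRNA and 86.4, 88.2 and 58.5 CPM with nc shRNA, which overlapped (0.21, SE 0.32, adjusted p = 0.804, or 0.43 with the block, adjusted p = 0.0507).

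Between same-numbered libraries of both populations, 7 of the 8 genes were higher with P16 shRNA in all 5 pairs, and Casp8 in 4 of 5 (18% of 16524 genes were higher in all 5). The 5 differences in log2 CPM ranged from 0.44 to 1.72 for Casp4, 0.57 to 1.51 for Casp1 and 0.32 to 2.62 for Mlkl. They ranged from 0.24 to 0.88 for Nod1, 0.23 to 0.70 for Gsdmd, 0.10 to 0.72 for Casp12 and 0.07 to 0.57 for Ripk3. For 6 of these 7 genes, all but Casp12, the pair of number 5 in Cd146+ cells gave the smallest of the 5 differences.

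In Cd31+ cells, where the 12 libraries have 4 numbers and 4 constructs, the number took more of the variance of log2 CPM than the construct for 4 of the 8 genes (Casp1, Gsdmd, Ripk3 and Nod1). In Cd146+ cells there are 6 numbers and 4 constructs, so that the number takes a larger share by construction and the shares are not compared. Casp4 had 76.1% for construct and 16.1% for number in Cd31+ cells, and Gsdmd 12.7% and 80.5%. For Ripk3 in Cd146+ cells construct alone took 4.57% and number alone 99.5%. Shares of number and construct overlap because the numbers are not balanced over constructs, and they are a description with no test.

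**Figure D3:**
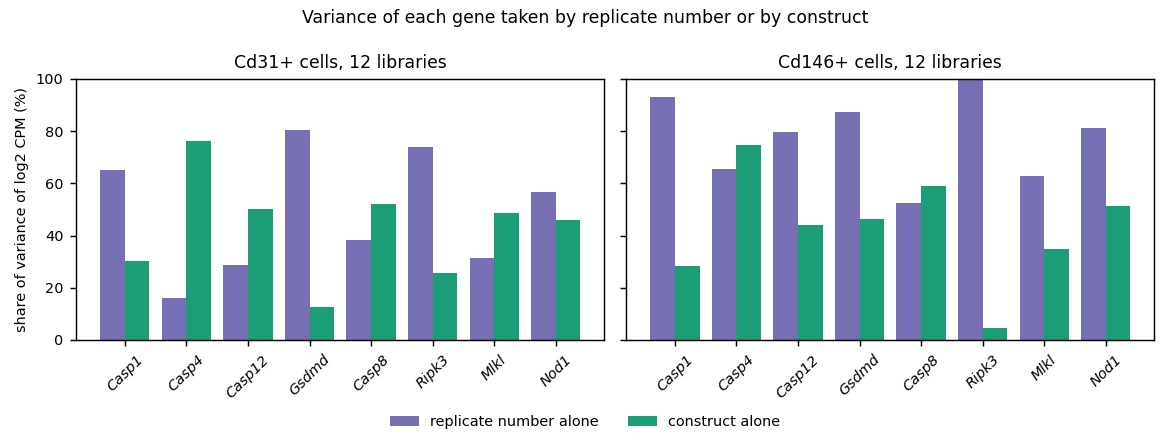
Share of the variance of log2 CPM (%, y axis from 0) taken by replicate number alone (purple) or by construct alone (green) for each gene over the 12 libraries of a population, with 4 numbers in Cd31+ and 6 in Cd146+ cells against 4 constructs. Ripk3 in Cd146+ cells is at 99.5% for number and 4.57% for construct, and Casp4 in Cd31+ cells at 16.1% and 76.1%.

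The difference of the silencing effect between Cd146+ and Cd31+ cells was tested over 24 libraries. No member was called by edgeR (0 of 8, and 0% of 16524 genes) or by DESeq2 (0 of 8, and 0%), and 0 of 8 were at an unadjusted p under 0.05 by edgeR (1.2% of all genes). With the block, Nod1 (-0.36, SE 0.15) and Ripk3 (-0.52, SE 0.20) were at an unadjusted p under 0.05 (2 of 8, against 4.55% of all genes), with an adjusted p of 0.986 each from edgeR. For Casp4 the difference was 0.06 (SE 0.41) in log2, and for Mlkl 0.12 (SE 0.73). Between the populations with control constructs, 0 of 8 members were called by edgeR or DESeq2 (0% and 3.3% of 15676 genes in either direction), and 0 of 8 were at an unadjusted p under 0.05 by edgeR (16.4% of all genes), with differences from -0.16 for Casp8 to 0.21 for Gsdmd.

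Overexpression of P16Ink4a gave no call among the 8 genes in either population. edgeR did not call the overexpressed Cdkn2a either, at 2.02 (adjusted p = 0.947) in Cd31+ and 2.44 (adjusted p = 0.986) in Cd146+ cells in log2. The lack of a call thus does not show that the 8 genes did not respond. In Cd31+ cells edgeR and DESeq2 called 0 of 8 (0% and 0.0275% of 14565 genes in either direction), 0 of 8 reached an unadjusted p under 0.05 by edgeR (3.73% of all genes), and 0 of 8 had P16 libraries above all empty vector libraries (4.88% of all genes). The log2 fold changes there ran from -0.27 (SE 0.44) for Casp1 to 0.17 (SE 0.23) for Gsdmd, with a median of 0.08. Casp4 had 8.08, 10.2 and 10.5 CPM with P16 and 9.87, 6.84 and 11.03 CPM with empty vector, which overlapped. In Cd146+ cells edgeR and DESeq2 again called 0 of 8 (0% and 0.00673% of 14860 genes in either direction). Nod1 alone lay above all its controls (1 of 8, against 3.84%) and was at an unadjusted p under 0.05 (1 of 8, against 1.55% by edgeR). Its CPM were 122, 116 and 83.3 with P16 (numbers 1, 3 and 5) and 53.2, 51.6 and 69.6 with empty vector (numbers 2, 4 and 5). The log2 fold change was 0.88 (SE 0.21, adjusted p = 0.986 from edgeR). These groups share only number 5, whose pair differed by 0.26 in log2 CPM. In Cd146+ cells numbers 2 and 4 occur only with empty vector, so that their block terms take up those libraries. Every blocked overexpression value there, here and below, thus rests on number 5 as the only empty vector library. For Nod1 the block over 12 libraries gave 0.18 (SE 0.15). In the 3 same-numbered pairs of both populations, Nod1 (0.13 to 0.35 in log2 CPM) and Casp1 (0.11 to 0.66) were higher with P16 each time, and Gsdmd in none (15.9% of all genes were higher in all 3). The difference of the overexpression effect between the populations was called for 0 of 8 members by edgeR or DESeq2 (0% and 0.0182% of 16524 genes), and 0 of 8 were at an unadjusted p under 0.05 by edgeR (3.82%).

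The nc shRNA and empty vector controls did not give equal levels in every pair. edgeR and DESeq2 called 0 of 8 between them in each population (0% of all genes by edgeR, and 0.131% in Cd31+ and 0.0267% in Cd146+ cells by DESeq2, in either direction). At an unadjusted p under 0.05, edgeR gave 0 of 8 in each (3.16% and 3.99% of all genes). In the 3 same-numbered pairs Casp1, Casp12, Gsdmd, Nod1, Mlkl and Ripk3 were lower with nc shRNA each time (6 of 8, against 18.7% of all genes), and Casp8 higher each time (1 of 8, against 16.9%). The nc shRNA libraries had 0.25 to 0.41 less log2 CPM of Nod1 than the empty vector libraries of the same number. With the block over 12 Cd31+ libraries this difference was -0.35 for Nod1 (SE 0.10, adjusted p = 0.247 from edgeR).

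Among the inflammasome sensors, adaptor and substrates, only 9 of 17 were abundant enough for a test in Cd31+ cells. The adaptor Pycard had at most 0.985 CPM, Nlrp3 1.44 CPM and Il1b 0.851 CPM in any library, and Il18, a substrate of caspase-1, 0.591 to 9.86 CPM. None of those tested was called in either population by edgeR (0 of 9 and 0 of 8, with 0 at an unadjusted p under 0.05). With the block in Cd31+ cells Naip2, a sensor of bacterial secretion system proteins, was higher (0.53, SE 0.14, adjusted p = 0.0271) and Nek7, the kinase that binds Nlrp3, lower (-0.36, SE 0.11, adjusted p = 0.0433). Of the other gasdermins only Gsdme passed the filter. It had 3.94 ± 0.986 CPM with nc shRNA and 8.24 ± 3.30 CPM with P16 shRNA (SD, 3 libraries each) in Cd146+ cells, with a log2 fold change of 1.06 (SE 0.38, adjusted p = 0.408), or 1.07 with the block (adjusted p = 0.0373). Ninj1, which ruptures the membrane after pore formation, had 0.32 (SE 0.23) in Cd31+ cells and 0.07 (SE 0.21) in Cd146+ cells.

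The 14 genes of the apoptotic caspases and apoptosome had a median log2 fold change of 0.01 in Cd31+ cells, where none was called, and 3 were higher and 4 lower at an unadjusted p under 0.05 (9.51% and 10.3% of all genes, and 5.44% and 6.18% in Cd146+ cells). Xiap, an inhibitor of caspases, was at 94.9 ± 15.7 CPM with nc shRNA and 56.1 ± 2.55 CPM with P16 shRNA in Cd31+ cells (SD, 3 libraries each), with a log2 fold change of -0.75 (SE 0.13, adjusted p = 0.0540 from edgeR, 0.00885 with the block). In Cd146+ cells it was at -0.89 (SE 0.25, adjusted p = 0.382, or 0.00954 with the block). Casp9, the initiator of the mitochondrial route, and its platform Apaf1 had -0.65 (SE 0.14, adjusted p = 0.0829) and -0.48 (SE 0.09, adjusted p = 0.0616) in Cd31+ cells, both lower with the block (adjusted p = 0.00511 and 0.0238). Bcl2l1, the survival factor Bcl-xL, was at -0.84 in Cd31+ and -0.71 in Cd146+ cells (adjusted p = 0.0834 and 0.382), and was called lower with the block in both (adjusted p = 0.000410 and 0.00695). Other genes of the Bcl2 family went other ways. From nc to P16 shRNA, mean CPM of Bak1 went from 55.0 to 67.1 in Cd31+ and from 52.5 to 73.9 in Cd146+ cells. Bmf went from 7.73 to 11.7 in Cd31+ and from 14.8 to 8.79 in Cd146+ cells. At an unadjusted p under 0.05, 1 of 13 family genes was higher and 1 lower in Cd31+ cells, and 1 and 2 of 14 in Cd146+ cells.

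In the list of the death receptor pathway, 1 of 11 genes tested was called in Cd31+ cells by edgeR (0.383% of all genes were called higher). It was Tnfrsf1b, a TNF receptor, which rose from 74.4 ± 6.54 to 122 ± 11.5 CPM (SD, n = 3 each, log2 fold change 0.72, SE 0.12, adjusted p = 0.0408). In Cd146+ cells it was at -0.19 (SE 0.48, adjusted p = 0.891 from edgeR), and the difference between the populations was -0.90 (SE 0.74, adjusted p = 1.00), or -0.36 with the block (SE 0.15, adjusted p = 0.986). Tradd, an adaptor of TNF receptor 1, had -0.94 (SE 0.17) and -1.06 (SE 0.19) in Cd31+ and Cd146+ cells, and was called lower with the block in both (adjusted p = 0.000371 and 0.00424). The receptor Tnfrsf10b had -0.67 (SE 0.12) and -0.55 (SE 0.15), also called lower with the block in both (adjusted p = 0.00171 and 0.0202).

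Of the 11 necroptosis partners tested, none was called without the block in either population. At an unadjusted p under 0.05 Cd31+ cells had 2 higher and 1 lower (against 9.51% and 10.3% of all genes). Cd146+ cells had 1 higher and 1 lower (against 5.44% and 6.18%). Zbp1, the nucleic acid sensor that binds RIPK3, had 0.287 ± 0.348 CPM with nc shRNA and 12.8 ± 15.7 CPM with P16 shRNA in Cd31+ cells (SD, n = 3 each), and 0.128 ± 0.0341 against 63.8 ± 101 CPM in Cd146+ cells. It was called higher with the block in both (adjusted p = 0.000513 and 0.00695 from edgeR). Tlr4 was lower with the block in both (-0.75, adjusted p = 0.0150, and -0.51, adjusted p = 0.0373). In NOD signalling no gene of 15 was called without the block in either population, and the median log2 fold changes were -0.14 and -0.05. Nfkbia, a target and inhibitor of NF-kB, had 0.54 (SE 0.19, adjusted p = 0.179, or 0.0150 with the block) in Cd31+ and 0.11 (SE 0.17, adjusted p = 0.815) in Cd146+ cells. In the unfolded protein response, Pdia4, a disulfide isomerase of the endoplasmic reticulum where caspase-12 resides, rose in Cd31+ cells from 195 ± 1.65 to 312 ± 32.4 CPM (SD, n = 3 each, 0.69, SE 0.11, adjusted p = 0.0363).

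Of the lists followed, the interferon response had the largest medians. All 27 genes tested had a higher fitted level with P16 shRNA in both populations, with medians of 3.57 in Cd31+ and 4.42 in Cd146+ cells. edgeR called 0 of 27 in each without the block, where 0.383% and 0% of all genes were called higher. At an unadjusted p under 0.05 there were 26 and 23, all higher (against 9.51% and 5.44% of all genes). With the block over 12 libraries 25 and 16 of 27 were called (7.95% and 3.53% of all genes were called higher). Isg15 had 3.98 ± 4.59 and 103 ± 86.5 CPM with nc and P16 shRNA in Cd31+ cells (SD, n = 3 each), and 2.46 ± 1.42 and 180 ± 135 CPM in Cd146+ cells. With empty vector it had 28.0 ± 27.1 CPM in Cd31+ and 12.7 ± 6.03 CPM in Cd146+ cells. The 28 interferon genes summed to 1190, 1011 and 3477 CPM with P16 shRNA in Cd31+ cells (numbers 1, 2 and 3). Empty vector number 5 (1315 CPM) and P16 number 5 (2049 CPM) lay above numbers 1 and 2 of these. In Cd146+ cells the P16 shRNA sums were 1808 to 6794 CPM, and the highest other sum was 954 CPM. Over the 24 libraries, log2 CPM of Casp4 followed the average log2 level of the 28 interferon genes with r = 0.74 (Spearman's rho 0.64), and Mlkl with r = 0.49 (rho 0.79, with 2 libraries of number 3 far below the rest). Gsdmd had r = 0.63 (rho 0.47), Casp12 0.59 (rho 0.61), Casp8 0.47 (rho 0.44) and Casp1 0.40 (rho 0.34). Nod1 had r = 0.16 (rho 0.02) and Ripk3 0.05 (rho 0.19). These correlations share libraries, constructs and numbers and are a description without a test, and the part of the interferon response in the levels of the 8 genes was not tested.

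**Figure D4:**
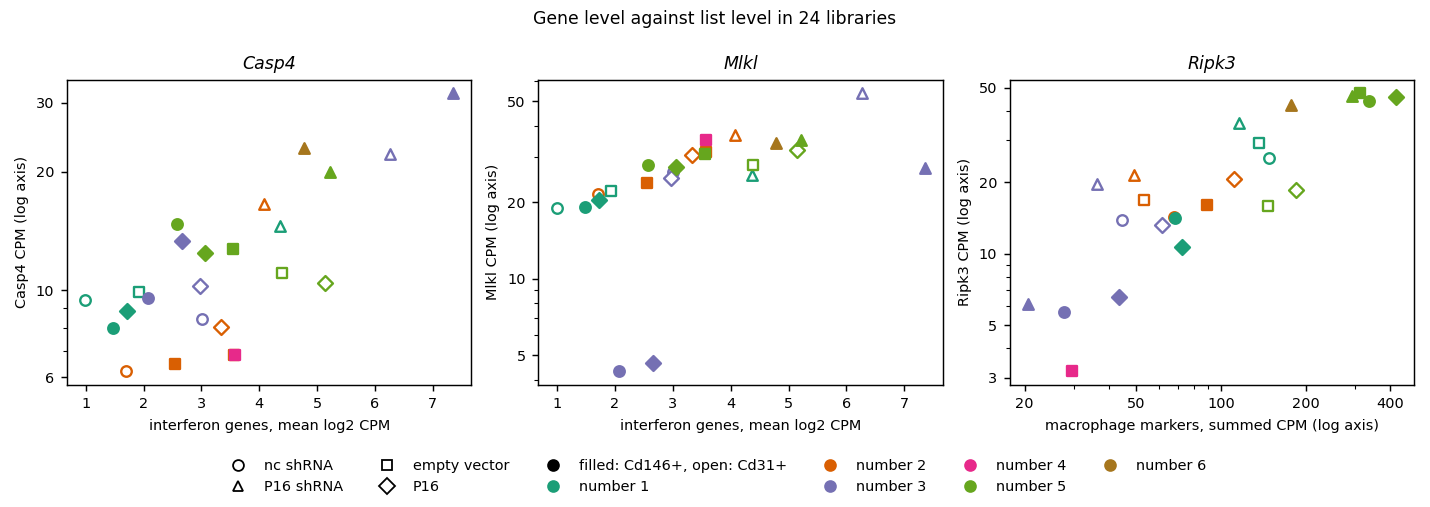
CPM of Casp4 and Mlkl (log y axis) against the mean log2 CPM of the interferon genes, and CPM of Ripk3 against the summed CPM of the macrophage markers (both axes log), in 24 libraries. Symbols give constructs, colours give numbers, filled symbols are Cd146+ cells and open symbols Cd31+ cells. Casp4 is highest where the interferon genes are highest, Mlkl falls to 4.34 and 4.67 CPM in 2 libraries of number 3, and Ripk3 is higher where the macrophage markers are higher.

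Ripk3 stood apart from the other 7 genes in the transcripts it moved with. Over 24 libraries the genes with the most similar log2 CPM were Tyrobp, C1qa and C1qb (r = 0.92, 0.92 and 0.91 among 16524 genes), which are genes of macrophages and related cells. Ripk3 followed the mean log2 CPM of the 16 macrophage markers with r = 0.85 (rho 0.82), where the other members had r between -0.30 and 0.30. The summed markers lay at 293 to 419 CPM in the Cd146+ libraries of number 5 and at 20.6 to 43.4 CPM in those of number 3, where Ripk3 lay at 44.0 to 47.3 and 5.68 to 6.55 CPM. Between 1 and 5 of the 16 markers were at 0 in a library. Kupffer cell markers were mixed, as Clec4f, Timd4 and Marco had at most 0.0929, 0.113 and 0.0465 CPM. Cd5l reached 11.03 CPM and Vsig4 2.17 CPM. In the Cd31+ silencing comparison the summed markers were 44.3 to 148 CPM with nc shRNA and 36.1 to 115 CPM with P16 shRNA, lower with P16 shRNA for each of numbers 1, 2 and 3 while Ripk3 was higher. The part of macrophage transcripts in the level of Ripk3 was not tested.

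For the other members the most similar genes over 24 libraries were Rpp40 and Slfn2 for Casp4 (r = 0.91 and 0.88) and Tmem63a, Scarb2 and Gpr39 for Nod1 (r = 0.92, 0.89 and 0.89). For Casp1 they were Nol6, Plac1 and Crls1, for Casp8 Col11a1, Utp4 and Prmt7, for Casp12 Lyplal1, Snx10 and Acat2, for Gsdmd Ms4a4d, Galnt17 and Pnp2, and for Mlkl Vav3, Vezt and ENSMUSG00000120992, with r between 0.79 and 0.89. Casp1 had its lowest correlation with the endothelial markers (r = -0.70). Its highest levels were in P16 shRNA and P16 number 3 of Cd146+ cells (60.1 and 28.1 CPM). P16 shRNA number 1 of Cd31+ cells (21.5 CPM) came next, above nc shRNA number 3 of Cd146+ cells (20.95 CPM). Among the 8 genes themselves Casp4 and Gsdmd were the most alike (r = 0.72), and Casp1 and Mlkl the least (r = -0.29).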

How the data were processed

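Poly-A RNA sequencing of 24 libraries was used, 3 for each combination of population and construct, grouped by the sample labels. Raw read counts per gene, whole numbers, were taken from the table deposited by the authors. The FPKM values were computed by the authors and deposited in the same table, and served only to order the genes by level. The gene length, which the authors deposited as another column, was used for counts per kilobase. The submitters' processing notes name fastp and the genome build mm9, and the aligner and counter are not given in the sources used here. Columns of the authors' own comparisons (20, with log2 fold changes and p-values) were not used.

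Each construct was compared with its control over 6 libraries with edgeR 4.0.16 in R 4.3.3, with filterByExpr, TMM normalization, a robust quasi-likelihood fit and the two-sided quasi-likelihood test, and Benjamini-Hochberg adjustment over all genes tested. DESeq2 1.42.0 gave size factors and a Wald test as alternatives. CPM per library come from 1 TMM normalization of all 24 libraries, and log2 CPM for correlations and pairs used a prior count of 2. Total counts were 15409767 to 26470392 per library, and the floor of 3 counts covers counting error only. The scripts were tested on simulated counts.

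The replicate number was used as a block in an alternative fit. After group means were removed, same-numbered libraries had a median correlation of 0.56 over 13 Cd31+ pairs (0.38 at least) and of 0.71 over 10 Cd146+ pairs (0.39 at least), and libraries of different number -0.17 and -0.07, so that the numbers from the labels were taken to pair the samples.

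Named genes are the 8 members, and of each list the 3 with the smallest p in silencing and the most abundant 1, narrowed in the text. Pycard, Nlrp3, Il1b and Il18, outside this rule, were chosen after their values were seen. The members and lists were chosen with earlier results of these data known. Alternatives were other filters, size factors, 1 fit per population, blocks, the Wald test and each library left out. The fits without number 3 libraries and with a term for sex-linked transcripts were added after seeing the data. Of the genes most like each member, 1 is not reported here. Promoters are RefSeq's for GRCm38.p6.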

Additional observations from a re-analysis of the deposited data

How the results depend on the processing

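Counts of members called with silencing depended on the fit. In Cd31+ cells the count of 0 became 6 with the replicate block over the 2 groups, 5 with the block over 12 libraries, 5 with all genes of at least 1 count, 2 with DESeq2's Wald test and 1 with 1 fit over 12 libraries without a block. For the fit with all genes of at least 1 count and the 1 fit without a block, the share of all genes called was not computed. Whether these 2 shifts are particular to the members is thus not known. In Cd146+ cells 0 became 2 with the block over 12 libraries and 1 with the Wald test. With 1 library left out at a time the count stayed at 0 in every comparison. A block over the 2 groups could not be fitted for P16 in Cd146+ cells, which share only number 5.

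Signs turned in several fits, and not only where changes were small. With overexpression in Cd31+ cells the blocks (2 groups, then 12 libraries) gave Casp1 0.52 and 0.26, Gsdmd -0.044 and -0.22 and Ripk3 0.26 and 0.14, and the block over 12 libraries gave Mlkl -0.078. In Cd146+ cells that block gave Casp1 -0.10, Casp4 -0.00323 and Gsdmd -0.19 with overexpression and Ripk3 -0.00246 with silencing. With silencing in Cd146+ cells Nod1 was at -0.084 without number 3 and Ripk3 at -0.33 with a term for sex-linked transcripts. The block changed no other call.

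With 1 library left out at a time, log2 fold changes spanned -0.033 to 0.85 for Gsdmd with silencing in Cd31+ cells, and -0.010 to 2.26 for Casp1, -0.18 to 0.37 for Nod1 and 0.11 to 1.67 for Ripk3 with silencing in Cd146+ cells. With overexpression in Cd31+ cells they spanned -0.50 to 0.28 (Casp1), -0.12 to 0.22 (Casp4), -0.15 to 0.013 (Casp12), -0.11 to 0.45 (Nod1), -0.027 to 0.23 (Mlkl) and -0.38 to 0.088 (Ripk3). In Cd146+ cells they spanned -0.040 to 1.62 (Casp1) and -1.39 to 1.15 (Ripk3). With silencing the sign turned without P16 shRNA number 3 for Gsdmd in Cd31+ and for Casp1 and Nod1 in Cd146+ cells. With overexpression in Cd31+ cells it turned without empty vector number 1 (Casp1, Mlkl and Ripk3), 2 (Casp4) or 5 (Casp12 and Nod1), or without P16 number 3 (Nod1) or 5 (Casp4). In Cd146+ cells it turned without P16 number 3 (Casp1 and Ripk3) or 1 (Ripk3) or empty vector number 5 (Ripk3). The causes were not tested.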
